A study of Mus musculus with 4 samples.

Results

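The Hox genes described here are the 40 protein-coding rows of the count tables whose symbol is Hoxa, Hoxb, Hoxc or Hoxd followed by a number, out of 54532 genes in all. They carry 39 symbols, because Hoxd4 stands on 2 gene identifiers, and they fall into 11 HoxA genes on chromosome 6, 10 HoxB genes on chromosome 11, 9 HoxC genes on chromosome 15 and 10 HoxD rows on chromosome 2. RNA was sequenced from 4 libraries of Dll1-mCherry-positive mammary tumours of MMTV-PyMT mice on the C57BL/6 strain, in which the mouse mammary tumour virus promoter drives the polyoma middle T oncogene in mammary epithelium. The libraries are labelled as primary breast cancer-associated fibroblasts (CAFs), the connective tissue cells of a tumour. The unirradiated group has libraries A and B without radiation, and the irradiated group has libraries A and B from tumours given 6 Gy, so both groups share the PyMT and Dll1-mCherry background. The labels name no animal for either library, so the spread within a group, and every p-value below, may reflect technical variation only. They place targeted radiation at day 6 and do not state the time from then to collection.

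Hox genes encode homeodomain transcription factors that tell cells where they lie along the body axis. Mammals carry them in 4 clusters, and genes with the same number in different clusters are paralogues. Low numbers lie at the 3′ end of a cluster and are used towards the head, and high numbers lie at the 5′ end and are used towards the tail and the limb tips. Adult fibroblasts are known to keep a Hox pattern that reflects their place of origin, and the mammary gland uses several Hox genes during its growth. The Pbx, Meis and Pknox proteins bind DNA together with Hox proteins, Polycomb complexes keep Hox clusters silent, Trithorax-type complexes keep them active, and retinoic acid switches on their 3′ genes.

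Hoxb4 was the Hox gene with the most counts, while its group 4 paralogues Hoxc4 and Hoxd4 had few or none. Hoxa4, the remaining group 4 paralogue, had no matched RefSeq promoter. The upstream sequences printed here are therefore those of Hoxb4, Hoxc4 and Hoxd4. Each is the 250 bases before a start that RefSeq annotates, read 5′ to 3′ on the plus strand from RefSeq promoters of GRCm38.p6, with every CpG in capitals. They lie at chr11:96318017-96318266 for Hoxb4, chr15:103034145-103034394 for Hoxc4 and chr2:74721728-74721977 for Hoxd4. The counted genes start right after the window for Hoxb4 and for 1 of the Hoxd4 rows. The counted Hoxc4 gene starts further upstream, at 103018934, and the other Hoxd4 row at 74711929, so these windows lie inside those genes.
Hoxb4: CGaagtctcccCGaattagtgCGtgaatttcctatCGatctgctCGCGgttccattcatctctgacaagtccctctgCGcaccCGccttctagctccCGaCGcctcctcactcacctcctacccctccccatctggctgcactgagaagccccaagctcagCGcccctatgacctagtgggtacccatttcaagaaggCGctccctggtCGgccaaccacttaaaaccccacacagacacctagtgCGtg
Hoxc4: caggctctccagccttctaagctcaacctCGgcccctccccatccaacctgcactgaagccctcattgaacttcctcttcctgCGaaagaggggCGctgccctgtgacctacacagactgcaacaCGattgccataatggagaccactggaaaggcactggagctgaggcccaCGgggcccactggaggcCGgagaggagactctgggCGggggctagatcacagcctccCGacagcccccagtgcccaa
Hoxd4: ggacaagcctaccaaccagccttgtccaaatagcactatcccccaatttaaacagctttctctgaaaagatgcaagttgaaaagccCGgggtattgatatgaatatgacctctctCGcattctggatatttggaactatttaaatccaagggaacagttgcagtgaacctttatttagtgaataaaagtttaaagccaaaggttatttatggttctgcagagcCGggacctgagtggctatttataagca

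The Hoxb4 window held 14 CpGs and 58.0% G or C, the Hoxc4 window 8 CpGs and 62.0%, and the Hoxd4 window 3 CpGs and 40.4%. Among the 24 RefSeq promoters that matched 22 Hox genes, the median was 12.5 CpGs in 250 bases, against 6 over all 32851 promoters. Their median G or C content was 58.6%, against 52.4%. Most of these Hox windows belong to HoxA and HoxD. Hoxc4 is the only HoxC gene among them, and Hoxb1, Hoxb4 and Hoxb8 are the only HoxB genes. Hoxa10 and Hoxd11 each have more than 1 window. Searched on both strands, the CCAAT box (CCAAT or ATTGG) occurred in 14 of the 24 Hox windows, or 58.3%, and in 33.8% of all windows. The E-box CACGTG was in 4 of 24, or 16.7%, against 6.02%, and the Hox-Pbx pattern TGATNNAT or ATNNATCA was in 4 of 24 against 7.68%. Hoxd4 held 1 CCAAT box, at position -208 from the start, and neither of the other windows printed here held any of these letters.

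Hox transcripts were scarce in every library. The libraries held 13011489 to 23763830 counts in total, and the Hox genes together took 135 and 130 counts in unirradiated libraries A and B and 195 and 261 in irradiated libraries A and B. That is 721 of 70162803 counts, and in single libraries 7.68 to 12.3 CPM, the usual scaling of a count to the total of its library. Apart from these values and the limits below, CPM are further scaled by TMM, which evens out differences in composition between libraries. Of the 40 rows, 6 had no count in any library (Hoxb13, Hoxc12, Hoxd1, Hoxd12 and both Hoxd4 rows), 34 had at least 1 count and 19 had a count in all 4 libraries. Between 22 and 29 rows were detected per library. A row without a count may still be transcribed at up to 0.0428 CPM, the level at which 3 counts would stand in the 4 libraries together, and in a single library that limit was 0.126 to 0.231 CPM. These limits do not cover reads that may go uncounted where genes overlap, as both Hoxd4 rows do.

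Only Hoxb4 reached a mean of 1 CPM, whereas 59.5% of the 22046 protein-coding genes in the files did. The highest count of any Hox gene in any library was 73. Per length, as CPM divided by kilobases of gene (RPKM), the median Hox row stood at 0.0734 RPKM over the 4 libraries. By cluster the medians were 0.0856 RPKM for HoxA, 0.0983 RPKM for HoxB, 0.0779 RPKM for HoxC and 0.00382 RPKM for HoxD. HoxD was therefore the cluster with the lowest median, and 4 of its 10 rows had no count at all. Both Hoxd4 rows are among them and overlap each other on the same strand. The counting settings are not known, so reads falling on more than 1 gene may have gone uncounted.

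**Figure D1:**
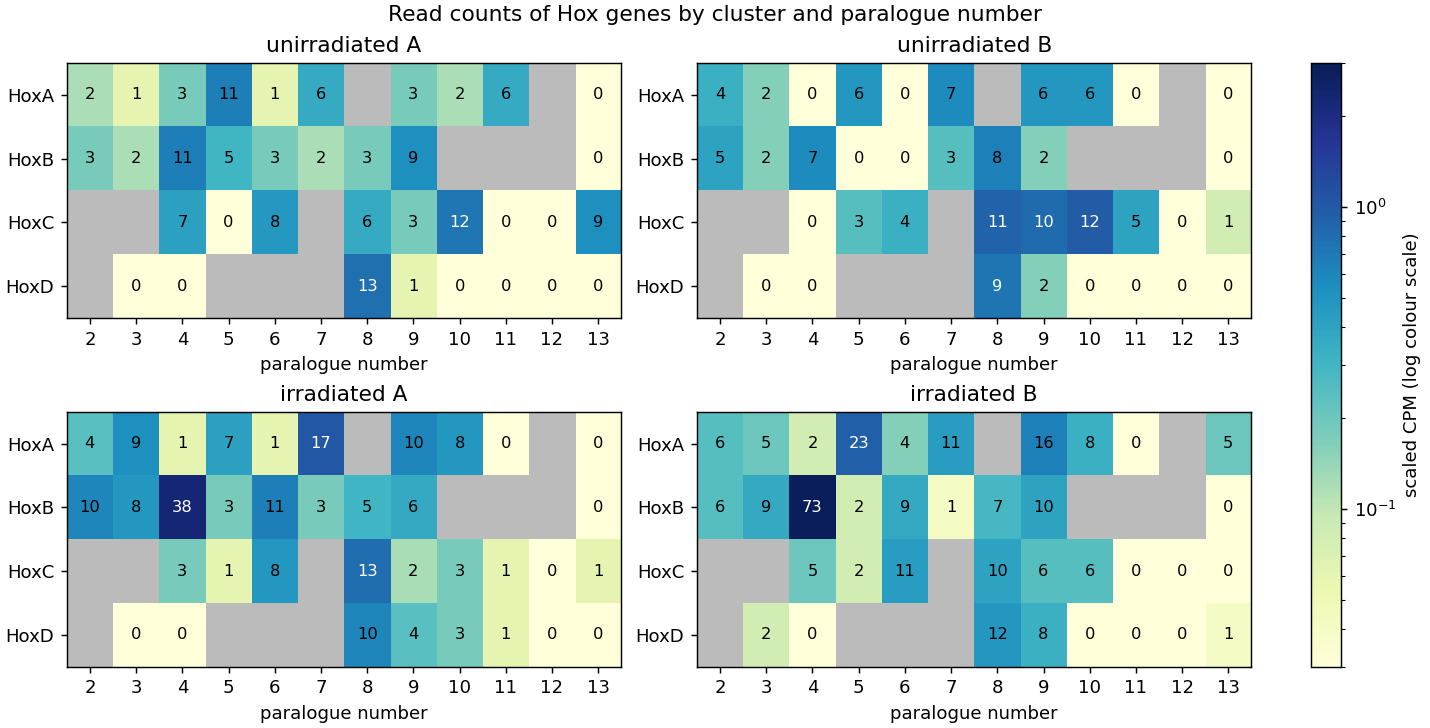
Hox genes by cluster (rows) and paralogue number (columns, from 2 to 13) in each of the 4 libraries, with the count printed in each cell, the scaled CPM as colour on a log scale, grey where the cluster has no such gene, and both Hoxd4 rows summed. Hoxb4, with 38 and 73 counts, is the darkest cell of the irradiated libraries, and most HoxD cells hold 0.

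In bulk libraries, fewer cells of a type and less RNA per cell cannot be told apart, and cell type markers moved with the groups. The 16 fibroblast markers summed to 551 to 585 CPM without radiation and 1870 to 1878 CPM with it, and 12 of 14 tested were higher. The 16 epithelial and tumour markers summed to 11249 to 11255 CPM and 9695 to 10120 CPM, with 3 higher and 10 lower, so the epithelial sum exceeded the fibroblast sum in both groups, against the label of the cells. Of 12 macrophage and monocyte markers 11 were higher (328 to 329 against 825 to 827 CPM), of 10 endothelial markers 9 (90.3 to 93.0 against 194 to 205 CPM), and of 8 pericyte and smooth muscle markers 5 (137 to 150 against 298 to 310 CPM). Of 6 tested chondrocyte markers 4 were higher and 2 lower (945 to 947 against 2476 to 2482 CPM). Of 6 tested T and NK cell markers 5 were lower (11.2 to 11.3 against 4.33 to 4.398 CPM), and of 2 tested adipocyte markers 1 (13.4 to 13.6 against 11.8 to 11.9 CPM). No marker had 0 counts in all 4 libraries. Their part in the results on the Hox genes was not tested.

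Irradiated and unirradiated libraries were compared gene by gene with edgeR's quasi-likelihood test and Benjamini-Hochberg adjustment over 15961 genes. With a threshold of 0.05, 33.9% of these genes were higher and 32.5% lower in the irradiated group, or 66.4% in either direction. Only 6 of the 40 Hox rows had enough counts to be tested, against 63.2% of protein-coding genes. The filter asks for enough counts in only as many libraries as 1 group holds. A row could thus enter through the group where it was high, as Hoxb4, Hoxc10 and Hoxa9 did. Of those 6, 1 was higher (Hoxb4), 1 was lower (Hoxc10) and 4 did not pass (Hoxa5, Hoxa9, Hoxc8 and Hoxd8). Among the 2508 tested genes with a mean level in the range of these 6, from 0.478 to 1.61 CPM, 16.3% were higher and 28.7% lower. The median log2 fold change was 0.12 over the 6 Hox genes and -0.00417 over all tested genes.

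Hoxb4, a 3′ to central HoxB gene best known for its role in blood stem cell self-renewal, lies on chromosome 11 from 96318267 to 96321638 on the plus strand (mm10). It had 11 and 7 counts in unirradiated libraries A and B and 38 and 73 counts in irradiated libraries A and B. On the scaled level this was 0.656 and 0.566 CPM against 2.29 and 2.95 CPM, so both irradiated libraries lay far above both unirradiated ones.

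The mean rose from 0.611 ± 0.0635 to 2.62 ± 0.467 CPM (SD, n = 2 each). The log2 fold change was 2.10 with a standard error of 0.41 and a 95% interval of 1.29 to 2.92 (edgeR, Benjamini-Hochberg adjusted p = 8.69e-06). Over the 14 alternative settings the adjusted p stayed between 2.00e-06 and 0.00303. No exon base of Hoxb4 is shared with another gene in GENCODE M21. Reads from the other strand at Hoxb4 were not measured.

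Hoxc10, a 5′ gene active in the hindlimb and lower trunk, lies on chromosome 15 from 102966796 to 102971893. Its counts were 12 in each unirradiated library and 3 and 6 in irradiated libraries A and B. Scaled, these were 0.716 and 0.971 CPM against 0.180 and 0.242 CPM, and the groups did not overlap.

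The mean of Hoxc10 fell from 0.843 ± 0.180 to 0.211 ± 0.0436 CPM (SD, n = 2 each), with a log2 fold change of -1.89, a standard error of 0.64 and an interval of -3.17 to -0.61 (edgeR, Benjamini-Hochberg adjusted p = 0.00792). The call was lost with DESeq2 (log2 fold change -1.94, adjusted p = 0.140), without unirradiated library B (-1.69, edgeR adjusted p = 0.0710) and without irradiated library B (-2.13, edgeR adjusted p = 0.0517). Of its exon bases 8.70% are shared with Hoxc5.

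Of the 4 tested genes that did not pass, Hoxd8, a central HoxD gene, had 13 and 9 counts in the unirradiated and 10 and 12 in the irradiated libraries. Its scaled levels were 0.776 and 0.728 against 0.601 and 0.484 CPM, which do not overlap. The log2 fold change of Hoxd8 was -0.50, with an interval of -1.58 to 0.58. Hoxa9, a 5′ gene of the HoxA cluster known from blood progenitors and leukaemia, had 3 and 6 against 10 and 16 counts, a log2 fold change of 1.01 and an interval of -0.30 to 2.31 (edgeR, Benjamini-Hochberg adjusted p = 0.169). The log2 fold change of Hoxa9 was 0.37 without unirradiated A and 1.78 without unirradiated B.

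Hoxa5, which acts in lung and mammary development, had 11 and 6 against 7 and 23 counts. Scaled, these were 0.656 and 0.485 against 0.421 and 0.928 CPM, and the groups overlap. Its log2 fold change was 0.31, with an interval of -0.79 to 1.40. Hoxc8, a mid-trunk gene, had 6 and 11 against 13 and 10 counts and overlapping levels, with a log2 fold change of -0.07 and an interval of -1.24 to 1.10. It turned to 0.63 without unirradiated B and 0.43 without irradiated B.

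The other 28 rows with counts were too low for the test and are described by their counts. The ratio of irradiated to unirradiated level is given with a 95% exact binomial interval, which covers counting error only. For genes and for sums, this ratio divides the pooled counts of each group by its pooled scaled library sizes. It can therefore differ from the ratio of the mean CPM. Of 22 rows with at least 10 counts, tested ones included, 13 had a ratio above 1. Over all 34 rows with counts, the interval lay above 1 for 2 (Hoxb4 and Hoxb6). It lay below 1 for 4, with Hoxa11, Hoxc10 and Hoxc13 among them. The same counts over all genes were not computed, so these numbers show nothing particular to the Hox genes. The groups did not overlap for 10 of the 34 rows with counts, with 7 higher and 3 lower in the irradiated group. Among all 30172 genes with a count, 26.8% had irradiated libraries that were both higher and 30.4% both lower.

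**Figure D2:**
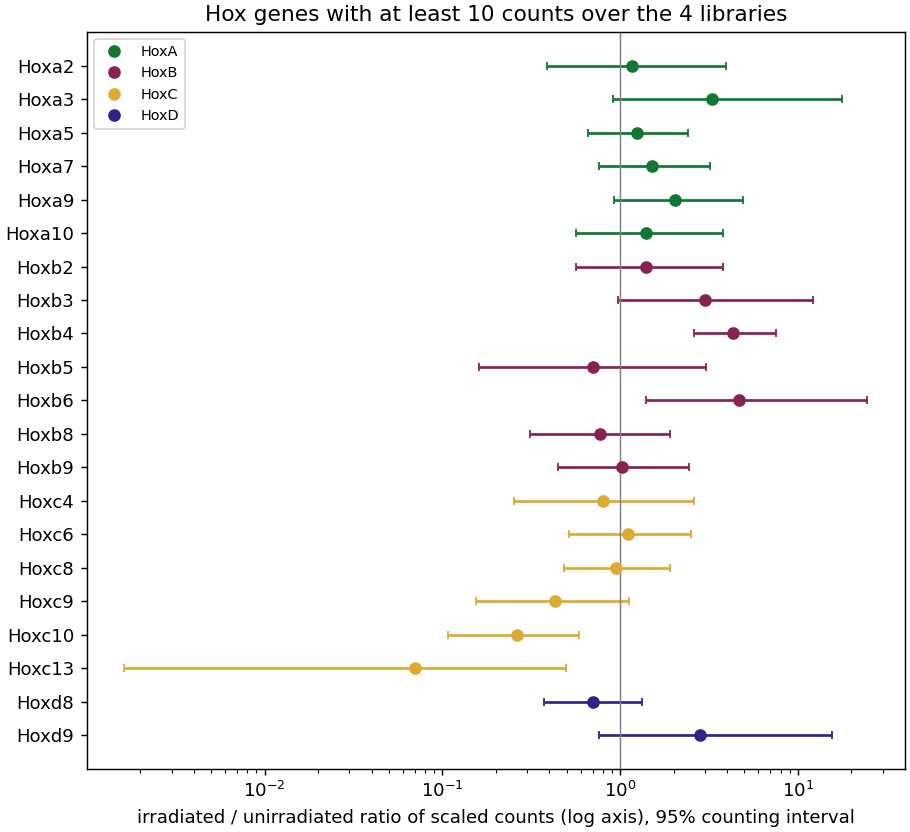
Ratio of irradiated to unirradiated level on a log axis for Hox genes with at least 10 counts in all (points, coloured by cluster) with its 95% exact binomial interval (lines). The interval of Hoxb4, 2.62 to 7.59, and that of Hoxb6 lie wholly above 1, those of Hoxc10 and Hoxc13 wholly below it, and the others drawn cross it.

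The size of these counting intervals can be set against libraries of the same group. In 34 comparisons of library A with library B within a group, for genes with at least 8 counts there, the interval excluded 1 in 3. Among these, Hoxc9 was 4.52 times higher in unirradiated B than in A (interval 1.16 to 25.6), and Hoxa7 was 2.30 times higher in irradiated A than in B (1.02 to 5.44).

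In the HoxA cluster Hoxa3, a 3′ gene of the pharyngeal arches and thymus, had 1 and 2 against 9 and 5 counts, a ratio of 3.28 (0.916 to 17.8). Of the exon bases of Hoxa3 27.1% are shared with other genes, so part of its reads may belong to those.

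Towards the middle, Hoxa7 had 6 and 7 against 17 and 11 counts and a ratio of 1.51 (0.759 to 3.19). Hoxa2, Hoxa4 and Hoxa6 had at most 6 counts in any library. At the 5′ end, Hoxa10, which acts in the uterus and hindlimb, had 2 and 6 against 8 and 8 counts. Hoxa11, its neighbour, had 6 counts in unirradiated A and 0 in the other 3 libraries. The counting interval of its ratio of unirradiated to irradiated level starts at 1.67. All of its counts came from 1 library, and 35.0% of its exon bases are shared with the antisense gene Hoxa11os. Hoxa13, needed for the digits and the genital tract, had 5 counts, all in irradiated B.

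In the HoxB cluster the genes beside Hoxb4 were examined on both sides. Hoxb3, next to it on the 3′ side, had 2 and 2 against 8 and 9 counts, a ratio of 2.99 (0.975 to 12.2), and 52.9% of its exon bases are shared with Hoxb3os. Hoxb5, on the other side, had 5 and 0 against 3 and 2 counts. Hoxb6, a central gene, had 3 and 0 against 11 and 9 counts, a ratio of 4.69 (1.39 to 24.6). The levels of Hoxb3 and Hoxb6 did not overlap between groups, and those of Hoxb5 did.

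Hoxb2, which like Hoxa2 acts in the hindbrain, had 3 and 5 against 10 and 6 counts and a ratio of 1.41. Hoxb8 had 3 and 8 against 5 and 7 counts and a ratio of 0.767, and Hoxb9, a 5′ HoxB gene, had 9 and 2 against 6 and 10 counts and a ratio of 1.02. Hoxb7 had 1 to 3 counts in each library, Hoxb1 had 1 count in all and Hoxb13, a prostate and hindgut gene, had none.

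In the HoxC cluster every 5′ gene with counts, from Hoxc9 on, had a ratio under 1. Hoxc9 had 3 and 10 against 2 and 6 counts and a ratio of 0.433 (0.155 to 1.13). Hoxc11 had 0 and 5 against 1 and 0 counts and a ratio of 0.141 (0.00297 to 1.26). Hoxc13, a gene of hair and nail, had 9 and 1 against 1 and 0 counts, and a ratio of 0.0703 (0.00162 to 0.494), with 9 of its 11 counts in unirradiated A. The central genes Hoxc6, with 8 and 4 against 8 and 11 counts and a ratio of 1.11, and Hoxc4, with 7 and 0 against 3 and 5 counts, had overlapping levels. Hoxc5 had at most 3 counts in any library, and Hoxc12 had none.

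In the HoxD cluster, which shapes limbs and digits, Hoxd8 held 22 of 25 counts in the unirradiated and 22 of 41 in the irradiated libraries. Hoxd9 had 1 and 2 against 4 and 8 counts, a ratio of 2.81 (0.759 to 15.5), and its levels did not overlap. Hoxd3, Hoxd10, Hoxd11 and Hoxd13 had 0 counts in both unirradiated libraries and at most 3 in any irradiated one, so no fold was computed for them. Of the exon bases of Hoxd3 62.8% are shared with other genes, and of those of Hoxd4 52.3%.

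Summed over a cluster, the counts allow narrower intervals. The HoxB genes together had 39 and 27 counts in the unirradiated and 84 and 117 in the irradiated libraries, or 2.26 ± 0.1005 against 4.89 ± 0.234 CPM (SD, n = 2 each), a ratio of 2.14 (1.61 to 2.87). Without Hoxb4 the HoxB sum was 1.64 ± 0.0369 against 2.27 ± 0.701 CPM, a ratio of 1.32 (0.919 to 1.91). In neither of these sums did the libraries of the groups overlap. Hoxb4 held 18 of 66 HoxB counts without radiation and 111 of 201 with it, and the interval of the other 9 genes includes 1.

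The HoxC genes together had 45 and 46 against 32 and 40 counts, or 3.20 ± 0.733 against 1.77 ± 0.220 CPM, a ratio of 0.556 (0.403 to 0.766), and the libraries did not overlap. The HoxA sum was 2.96 ± 1.07 against 3.47 ± 0.283 CPM, with overlapping libraries and a ratio of 1.20 (0.911 to 1.60). The HoxD sum was 0.863 ± 0.0387 against 1.01 ± 0.109 CPM, a ratio of 1.15 (0.685 to 1.98). The HoxD libraries did not overlap either, at 0.835 and 0.890 against 1.08 and 0.928 CPM. With 2 against 2 libraries an exact two-sided permutation test cannot go below p = 0.333, and no test was run on these sums.

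**Figure D3:**
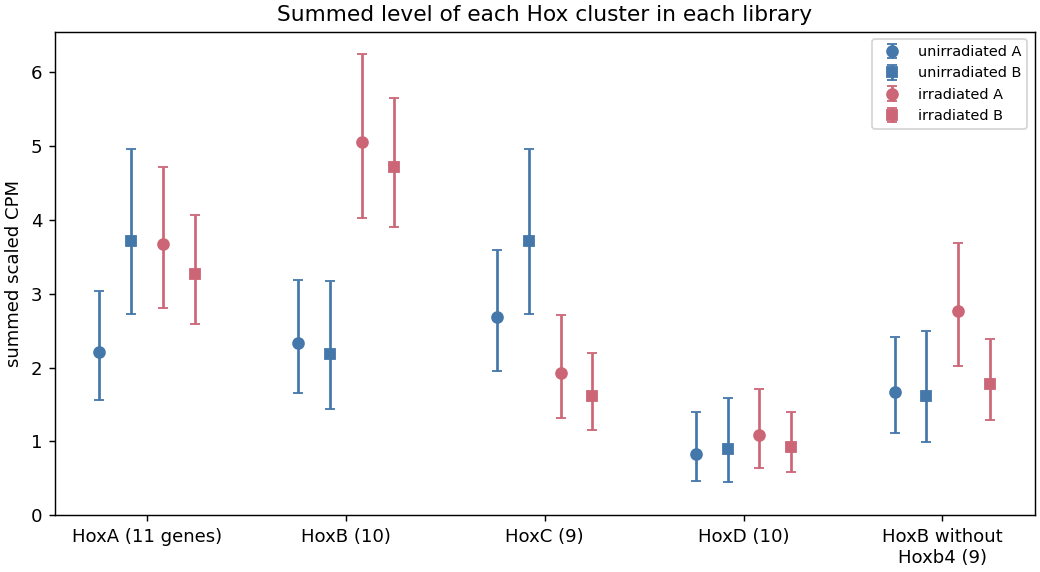
Summed level in CPM of each Hox cluster in each library (circles for library A, squares for B) with its 95% exact Poisson interval (bars), and of HoxB without Hoxb4. The mean of HoxB is 2.26 CPM without radiation and 4.89 CPM with it, that of HoxC 3.20 and 1.77 CPM, and the HoxA libraries overlap.

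As a share of all Hox counts, HoxB went from 24.9% in the unirradiated to 44.1% in the irradiated group and HoxC from 34.3% to 15.8%. HoxA held 31.3% and 31.1%, and HoxD 9.43% and 8.99%. All Hox genes together stood at 9.29 ± 1.74 CPM and 11.1 ± 0.846 CPM (SD, n = 2 each), a ratio of 1.21 (1.04 to 1.41), and the libraries lay at 8.05 and 10.5 CPM against 11.7 and 10.5 CPM. Without Hoxb4 the total was 8.67 ± 1.81 against 8.51 ± 1.31 CPM, a ratio of 0.982 (0.832 to 1.16).

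By position in the cluster, with groups of paralogue numbers 1 to 3, 4 to 8 and 9 to 13 formed after the counts were seen, the HoxC genes differed in ratio. Hoxc9 to Hoxc13 had 24 and 28 counts in the unirradiated and 7 and 12 in the irradiated libraries, or 1.85 ± 0.589 against 0.453 ± 0.0447 CPM, a ratio of 0.257 (0.143 to 0.442). Hoxc10 gave 24 of those 52 and 9 of those 19 counts. The central HoxC genes Hoxc4 to Hoxc8 had 39 against 53 counts and a ratio of 0.956 (0.620 to 1.48).

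The 5′ ends of HoxA and HoxD had ratios above 1. For Hoxa9 to Hoxa13 the ratio was 1.44 (0.855 to 2.48), and for Hoxd9 to Hoxd13, with 3 against 17 counts, it was 3.99 (1.15 to 21.2). For HoxB, where only Hoxb9 had counts, it was 1.02 (0.446 to 2.44), and over all clusters 0.782 (0.582 to 1.05). The difference from HoxC was not tested.

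Summed over paralogues in all clusters, group 4 had 28 against 122 counts, a ratio of 3.06 (2.02 to 4.80), but 10 against 11 counts without Hoxb4, a ratio of 0.774. Group 3 had 7 against 33 counts and a ratio of 3.32 (1.44 to 8.88), with 14 irradiated counts from Hoxa3 and 17 from Hoxb3. Group 6 had 16 against 44 counts and a ratio of 1.93 (1.07 to 3.67), with 20 irradiated counts from Hoxb6 and 19 from Hoxc6. Group 11 had 11 against 2 counts and a ratio of 0.128 (0.0138 to 0.586). The unirradiated counts of group 11 were 6 of Hoxa11, all in library A, and 5 of Hoxc11, all in library B. Groups 8, with 50 against 57 counts, and 9, with 36 against 62, had ratios of 0.802 and 1.21, and group 12 had no count. Groups 2, 5, 7, 10 and 13 had ratios of 1.31, 1.07, 1.25, 0.615 and 0.492. The intervals of groups 2, 5, 7, 8, 9, 10 and 13 all included 1.

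Per length, a different gene had the highest mean in each group. In the unirradiated group Hoxc10 stood first at 0.442 ± 0.0945 RPKM, and below it stood, among others, Hoxa5 at 0.304 ± 0.0643, Hoxd8 at 0.274 ± 0.0122, Hoxb4 at 0.238 ± 0.0248 and Hoxc8 at 0.220 ± 0.133 RPKM (SD, n = 2). From Hoxc10 to Hoxc8 each gene named here differed from the next by less than the sum of their SDs. In the irradiated group Hoxb4 led at 1.02 ± 0.182 RPKM. It was followed by Hoxa5 at 0.359 ± 0.191, Hoxb6 at 0.261 ± 0.107, Hoxa7 at 0.255 ± 0.142, Hoxc8 at 0.209 ± 0.0945 and Hoxd8 at 0.198 ± 0.0302 RPKM. Hoxb4 stood above Hoxa5 by more than the sum of their SDs, and the neighbours after it differed by less.

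The clusters also hold genes that do not encode protein. Of 48 such genes within 10000 bases of the clusters 34 had no count, 2 were tested, 0 were higher and 1 was lower. The lower one, Hotairm1, is transcribed antisense from the 3′ end of HoxA (chromosome 6, 52156902 to 52162119). It is singled out after its values were seen, because its mean lies under 1 CPM. It had 32 and 19 counts in the unirradiated and 4 and 2 in the irradiated libraries, or 1.72 ± 0.263 against 0.161 ± 0.113 CPM (SD, n = 2 each). The log2 fold change of Hotairm1 was -3.53 with a standard error of 0.59 (edgeR, Benjamini-Hochberg adjusted p = 4.37e-07). It was -4.31 without irradiated A and -2.81 without irradiated B. Because the library kit does not mark strand, its reads cannot be told apart from those of a gene overlapping it on the other strand. Hottip and Hotair, noncoding RNAs from the 5′ ends of HoxA and HoxC, had no count, nor did Mir10a, Mir10b or Mir196b, whose short RNAs a poly(A) library does not hold.

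Of the 24 protein-coding genes nearest to the clusters, 20 were tested, with 4 higher, 9 lower and 7 not passing. Their median level was 7.38 RPKM, against 0.0734 RPKM for the Hox rows between them. Evx1, a homeobox gene just beyond Hoxa13, had 66 and 47 counts in the unirradiated and 0 and 4 in the irradiated libraries. It fell from 3.87 ± 0.0952 to 0.0807 ± 0.114 CPM, a log2 fold change of -5.23 with a standard error of 0.53 (edgeR, Benjamini-Hochberg adjusted p = 2.48e-13). Its log2 fold change was -4.51 without irradiated A and -8.89 without irradiated B, where the group then holds 0 counts and the fitted value depends on the prior count. Calcoco1 beyond HoxC fell by 1.01 on the log2 scale, whereas Cbx5, at the other end of HoxC, rose by 0.68 and Nfe2l2, beyond HoxD, by 0.56. Scaled by library totals alone 7 neighbours were higher, and with the trend on gene length removed 14 were lower. In the test against 1.5-fold 0 neighbours were higher and 2 lower.

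**Figure D4:**
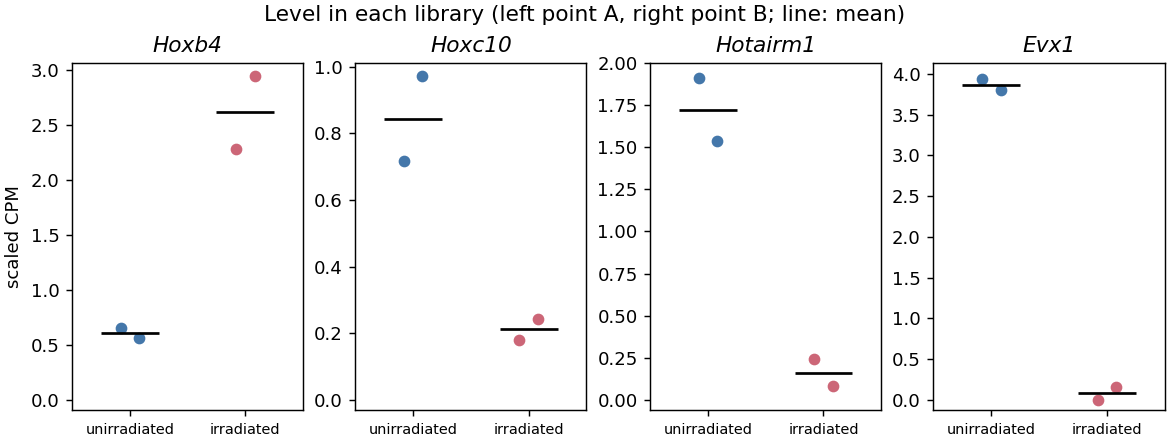
Scaled level in CPM (each panel with its own axis) of Hoxb4, Hoxc10, Hotairm1 and Evx1 in each library, with A as the left and B as the right point and the group mean as a line. The irradiated points of Hoxb4, 2.29 and 2.95 CPM, lie above its unirradiated ones, and those of Hoxc10, Hotairm1 and Evx1 lie below.

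The TALE cofactors of Hox proteins were all expressed above 1 CPM, and 3 of 9 rose, 1 fell and 5 did not pass. Meis2 rose from 1.53 ± 0.109 to 4.65 ± 0.306 CPM, a log2 fold change of 1.57 (edgeR, Benjamini-Hochberg adjusted p = 2.61e-06). Meis3 rose by 0.59 and Pknox2 by 0.68, and Meis1 fell by 0.67, on the log2 scale. The calls of Pknox2 and Meis1 were lost with DESeq2, with log2 fold changes of 0.72 and -0.65 (adjusted p = 0.213 and 0.119). Pknox2 was also lost with the trend on gene length removed (0.34, edgeR adjusted p = 0.306) and without unirradiated A or either irradiated library, and Meis1 without unirradiated B or irradiated B. With the trend on gene length removed 3 members were lower, and with library totals alone 5 were higher. In the test against 1.5-fold 1 member, Meis2, was higher and 0 were lower.

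Of 12 ParaHox and Hox-linked homeobox genes 3 were tested, with 1 higher and Evx1 lower. The higher one, Meox1, a somite gene, rose by 1.01 on the log2 scale from 0.811 ± 0.118 to 1.70 ± 0.234 CPM (edgeR, Benjamini-Hochberg adjusted p = 0.0298). The call of Meox1 was lost with DESeq2 (adjusted p = 0.205) and in the test against 1.5-fold (edgeR adjusted p = 0.199). It was also lost on leaving out any 1 of the 4 libraries, with log2 fold changes of 0.90 to 1.19.

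Regulators of Hox clusters were well expressed, at medians of 10.9 RPKM for the Trithorax and MLL list and 10.7 RPKM for the Polycomb list. Of 12 Trithorax and MLL genes 4 were higher, 4 lower and 4 did not pass. Dpy30, a core subunit of the complexes that methylate histone H3, fell by 0.63 on the log2 scale, and Kdm6b, which removes the Polycomb mark, and Wdr5 each rose by 0.33. The call of Kdm6b was lost with the trend on gene length removed (0.07, edgeR adjusted p = 0.139). That list then had 2 higher and 7 lower members, against 7 and 2 with library totals alone. In the test against 1.5-fold the list had 0 higher and 0 lower members, so Dpy30, Kdm6b and Wdr5 were not called there. Of 21 Polycomb genes 8 were higher, 7 lower and 6 did not pass. Jarid2 fell by 1.01 and Cbx8 by 0.81 on the log2 scale, whereas Rnf2, the catalytic subunit of the ubiquitin ligase complex, rose by 0.80. With the trend on gene length removed 11 Polycomb genes were lower, and in the test against 1.5-fold 1 was higher and 3 were lower.

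Of 16 genes of retinoic acid receptors and turnover 14 were tested, with 6 higher, 6 lower and 2 not passing. Aldh1a1, which makes retinoic acid, fell from 30.4 ± 1.28 to 2.53 ± 0.765 CPM, and Stra6, the retinol uptake receptor, from 34.8 ± 2.02 to 3.22 ± 0.299 CPM. Aldh1a3, another retinoic acid enzyme, rose from 8.003 ± 1.95 to 62.2 ± 2.47 CPM, and Cyp26a1, which breaks retinoic acid down, from 0.411 ± 0.00923 to 4.22 ± 0.531 CPM (SD, n = 2 each). Their log2 fold changes were -3.53, -3.42, 3.00 and 3.36. These enzymes act in opposite senses, and both directions occurred among those that make the acid.

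Other homeobox genes were counted for comparison. Of 194 genes that the files place in the Homeobox family and that are not Hox genes, 60 were tested, 28 rose and 19 fell, and 49 had a mean of at least 1 CPM. Their median level was 0.0288 RPKM and that of the ParaHox and Hox-linked list 0.0228 RPKM, below the medians of HoxA, HoxB and HoxC and above that of HoxD. Irx1, one of the Iroquois genes, had the highest level per length among them, at 111 RPKM, and these genes were chosen after their values were seen. Irx1 rose from 217 ± 5.22 to 367 ± 2.93 CPM and Irx3 fell from 342 ± 19.8 to 211 ± 3.44 CPM. Irx2 stood at 349 ± 1.28 and 364 ± 2.47 CPM without passing, Irx5 fell from 175 ± 3.19 to 133 ± 4.35 CPM and Irx4 from 18.2 ± 0.404 to 1.83 ± 0.134 CPM (SD, n = 2 each). Irx1, Irx2, Irx3 and Irx5 together reached 117 times the summed level of all Hox genes in the unirradiated and 96.6 times in the irradiated group.

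**Figure D5:**
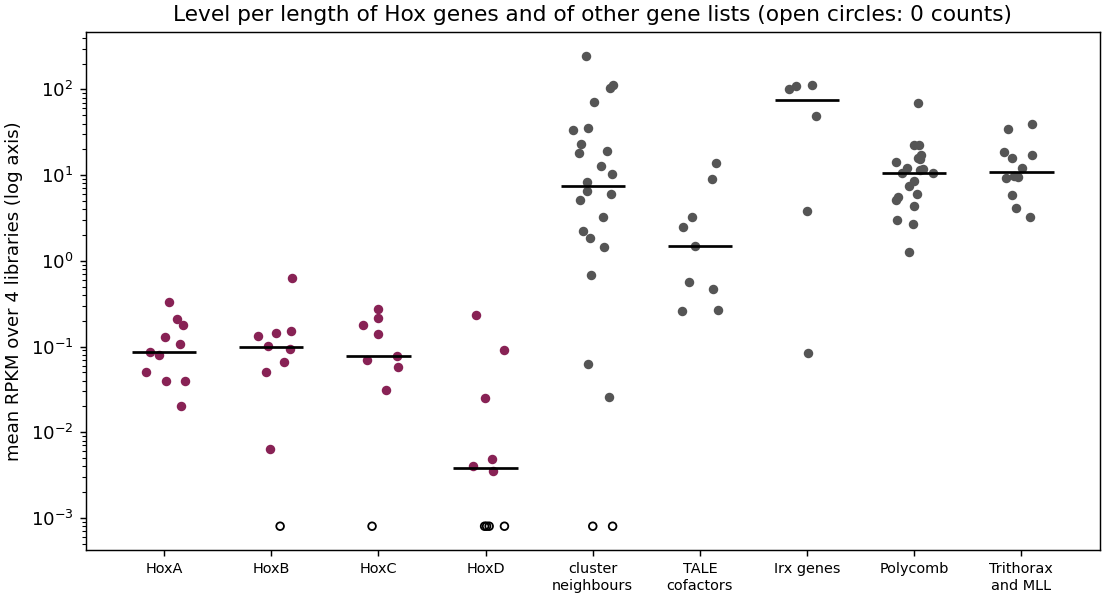
Level per length in RPKM on a log axis, as the mean over the 4 libraries, of each gene in the 4 Hox clusters and in other lists (points, open circles at the bottom for genes with 0 counts) with the list median (lines). The Hox medians, 0.00382 to 0.0983 RPKM, lie below those of the neighbours, at 7.38 RPKM, and of the other lists drawn, which do not include the homeobox lists with lower medians.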

How the data were processed

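RNA sequencing counts were used from 2 unirradiated and 2 irradiated libraries. Per the labels' protocols, tumours were digested, a PDGFRa antibody was used to detect fibroblasts, and poly(A) RNA went into non-directional libraries, so strand is unknown. The submitters' processing notes name mm10, STAR 2.5, HTSeq 0.6.1 and DESeq2. The sources used here give neither annotation release nor counting settings. Raw read counts for each gene, with a gene length in bases, are what the authors deposited, per the file headers. For 38 of the 40 Hox rows coordinates and length equal those of GENCODE M21, from which exon overlaps were computed, and 16 share exon bases with another gene.

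Counts were tested with edgeR 4.0.16 in R 4.3.3 (filterByExpr, TMM scaling, quasi-likelihood F-test) over 15961 genes. The fit left 2 residual and gained 60.0 prior degrees of freedom, and standard errors were derived from F. CPM were scaled by TMM, and RPKM divides them by the deposited length. Intervals of ratios are 95% exact binomial ones (scipy 1.17.1). On simulated counts for this comparison over 15961 genes, 54 of 67 genes changed 1.5-fold, 59 of 67 changed 2-fold and 62 of 66 changed 4-fold were recovered. The changed genes were drawn from all tested genes, with the same dispersion for every gene. These rates therefore need not hold at the low counts of the Hox genes.

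All Hox rows enter the counts and sums, and values of some items are not reported here. Of each other list up to 4 called members with a mean of at least 1 CPM are named, largest change first, and exceptions are stated. The Hox set, the lists and the tests were chosen with earlier results of these data known. Alternatives were other scalings, DESeq2 1.42.0, other filters, a replicate block, a threshold of 0.1, a test against 1.5-fold, removal of the trend on gene length and leaving out each library. No batch is labelled, so batch and irradiation cannot be told apart.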

Additional observations from a re-analysis of the deposited data

How the results depend on the processing

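Hoxb4 was higher under all 14 alternatives, with log2 fold changes of 1.88 to 2.25. Hoxb6 was fitted at 6.14 on the log2 scale when unirradiated A was left out. Its unirradiated counts were 3 in A and 0 in B, so that fit rests on 1 unirradiated library with 0 counts. The fitted value therefore depends on the prior count, and no call of Hoxb6 is drawn from it. The count of lower Hox genes was 0 with DESeq2 (0 at an unadjusted p under 0.05). Of 19643 genes in all, DESeq2 called 17.4% lower and 22.8% higher. Without the filter 34 Hox rows were tested and 3 were lower, Hoxc10 and Hoxc13 among them. Over all 30172 genes that setting called 15.9% lower and 19.4% higher. With the stricter filter (1 CPM in 2 libraries) 0 Hox genes were lower (0 at an unadjusted p). Only Hoxb4 was tested there, and it entered through its irradiated libraries. On leaving out a library the log2 fold change of Hoxc10 was -2.13 to -1.69.

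Over all genes the test against 1.5-fold gave 2032 higher and 1754 lower, and DESeq2 gave 4487 higher and 3421 lower. Scaling by library totals alone shifted the median log2 fold change by 0.14 and gave 6700 higher and 4019 lower. That scaling turned Hoxc8 to 0.0627, and leaving out 1 library gave it -0.67 to 0.63, above 0 without unirradiated B (0.63) and irradiated B (0.43). The log2 ratio of the HoxA sum ranged from -0.10, without unirradiated A, to 0.65, that of HoxB from 1.07 to 1.25, that of HoxC from -1.07 to -0.60 and that of HoxD from 0.11 to 0.36.

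The A minus B differences of the 2 groups were nearly uncorrelated (r = 0.0111 over 15961 genes). Counting noise can hide a shared difference, so this value does not settle whether the letters pair the libraries. With the replicate block, 1 Hox gene was higher and 1 lower, with log2 fold changes of 2.06 for Hoxb4 and -1.96 for Hoxc10, and 5418 genes were higher and 5200 lower in all. Depth limits every Hox gene, since 1 count was worth 0.0421 to 0.0769 CPM. This includes Hoxb4, which had only 11 and 7 counts in unirradiated libraries A and B.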
